A study of Mus musculus with 6 samples.

Results

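The serpins are a superfamily of protease inhibitors and related proteins that share one fold. Here the family was taken as every gene of the count table whose symbol is Serpin followed by a clade letter and a number, which gave 35 of 25703 genes in 9 clades (A to I). The family was chosen by the measured fold change of Serpina3n between the 2 genotypes, the largest fall among the named genes of an earlier analysis of these same libraries, so its genotype difference is described below without a test. Of the 35 genes, 32 are annotated as protein coding, and Serpina3e-ps, Serpina3h and Serpinb10 as kinds of pseudogene.

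RNA came from the proximal part of the incisor of mice, a tooth that grows throughout life from stem cells held at that end. The 3 Arid1a cKO libraries are from Gli1-CreER;Arid1a fl/fl mice and the 3 control libraries from Arid1a fl/fl mice, all 6 weeks old and on a C57BL/6 background. Both groups thus carry floxed Arid1a, which encodes a subunit of a SWI/SNF chromatin remodelling complex, and the protocol, given alike for all samples, states 3 daily doses of tamoxifen (1.5 mg for each 10 g of the mouse) given when the mice were 1 month old. Gli1-CreER is a tamoxifen-inducible recombinase driven from Gli1, a Hedgehog target gene of the incisor mesenchyme, so the deletion is limited to cells that expressed Gli1 at that time and their descendants. The genotype of the control mice names no Cre allele, and hence Cre itself and the loss of Arid1a cannot be told apart. Nothing in the labels says whether the libraries of a group came from separate animals, and p-values therefore measure only the spread between these libraries.

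An inhibitory serpin presents an exposed reactive loop as bait. The protease cuts this loop, stays bound to it and is trapped as the serpin refolds, so that both molecules are used up. The loop sequence sets which protease is caught, and it can differ strongly between recently duplicated genes such as the mouse Serpina3 cluster. Some members, including Serpinf1, Serpinh1 and Serpinb5, work without inhibiting a protease.

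Library totals were 29922013 to 37908478 counts in Arid1a cKO and 27300932 to 32677240 counts in control. Levels are given as CPM (counts scaled to a common library total) with the replicates of a group in the order 1, 2, 3, where the numbers follow accession order and only name libraries. Arid1a itself was at 136.4, 139.0 and 145.3 CPM in Arid1a cKO, against 221.7, 248.8 and 223.3 CPM in control, and was lower in each Arid1a cKO library (log2 fold change −0.72 ± 0.07 SE, adjusted p = 0.00802, edgeR). Markers of dental mesenchyme were present in each library, with a summed level over 12 genes of 2506 to 2684 CPM in Arid1a cKO and 2979 to 3444 CPM in control. Arid1a cKO replicate 1 stood apart: 69 of 25703 genes were more than 5 times above every other library there (0.2 CPM added to each value), against 0 such genes in each of the other Arid1a cKO libraries and 2 to 6 in each control library. In this library and in control replicate 3 Xist exceeded the Y-linked genes, and in the other 4 libraries it did not.

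Serpina3n encodes a secreted inhibitor of chymotrypsin-like proteases and is an acute phase gene related to human SERPINA3. It lies at chr12:104406729-104414329 on the plus strand (mm10), as the last of 8 neighbouring Serpina3 genes in the table. The coding bases of the reactive loop are shown because they bear on whether reads of Serpina3n can be told from those of its relatives. Other stretches of the coding sequence were not compared in this way. Each line gives 75 coding bases, starting at the conserved hinge codons of the loop, from the GENCODE M21 transcripts. Capitals mark bases that differ from Serpina3n at the same place.
Serpina3n: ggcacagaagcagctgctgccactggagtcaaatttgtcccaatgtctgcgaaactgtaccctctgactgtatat
Serpina3m: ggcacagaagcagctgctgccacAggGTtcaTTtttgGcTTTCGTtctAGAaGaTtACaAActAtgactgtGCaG
Serpina3g: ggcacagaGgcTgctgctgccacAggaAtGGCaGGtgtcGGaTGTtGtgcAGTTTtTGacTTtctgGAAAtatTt
Serpina3i: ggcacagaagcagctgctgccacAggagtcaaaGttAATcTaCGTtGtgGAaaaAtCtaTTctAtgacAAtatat

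Over this window Serpina3m, Serpina3g and Serpina3i differ from Serpina3n at 25, 29 and 19 bases, which leaves identities of 66.7%, 61.3% and 74.7%. Over the aligned coding sequence the same genes are 85.2%, 85.3% and 85.1% identical to Serpina3n. The window was compared base by base without gaps, while the coding identity comes from an alignment with gaps and counts aligned bases only (651 for Serpina3g). The window and coding percentages are therefore unlike measures. The hinge bases at the left end are nearly alike in the 4 sequences, and the differences gather to their right. Of the 75-base stretches of the Serpina3n transcripts, the read length used here, 98.5% occur in no other annotated gene. Serpina3n shares 29 of 1990 such stretches with Serpina3e-ps and 26 with Serpina3g, and none with Serpina3m.

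Serpina3n was at 3.11, 1.46 and 0.297 CPM in Arid1a cKO, against 24.3, 26.2 and 28.9 CPM in control. All 3 Arid1a cKO libraries lay below all 3 control libraries, and the lowest control library was 7.8 times the highest Arid1a cKO library. The means were 1.62 ± 1.42 CPM in Arid1a cKO and 26.5 ± 2.33 CPM in control (SD, n = 3 each), a level 15.8-fold lower in the fit over all genes (log2 fold change −3.98 ± 0.61 SE). The Arid1a cKO libraries spread widely among themselves, the highest being 10.5 times the lowest, while the control libraries differed by 1.19 times. In estimated counts the values were 122.2, 54 and 9 in Arid1a cKO, against 762.7, 723.4 and 792.7 in control. Within the 2 libraries with Xist above the Y-linked genes Serpina3n was at 3.11 CPM in Arid1a cKO and 28.9 CPM in control. Within the other 4 it was at 1.46 and 0.297 CPM in Arid1a cKO, against 24.3 and 26.2 CPM in control. As the samples are bulk tissue, fewer cells that express a gene and less RNA per cell cannot be told apart.

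**Figure D1:**
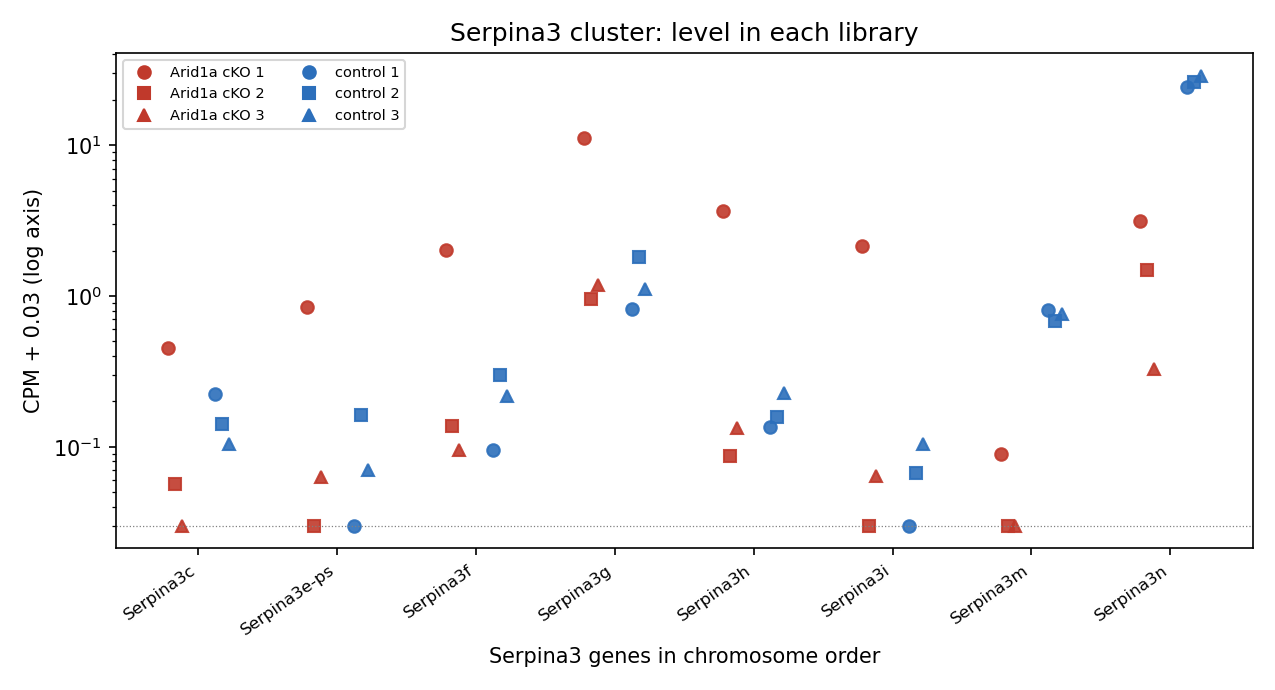
CPM plus 0.03 on a log axis for the 8 Serpina3 genes in chromosome order, 1 point per library, Arid1a cKO (red) left of control (blue); the dotted line marks a level of 0. Serpina3n and Serpina3m lie lower in all Arid1a cKO libraries than in all control libraries, and Arid1a cKO replicate 1 (red circle) is the highest library for the other 6 genes.

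The paralog Serpina3m (chr12:104338486-104394257, plus strand), whose protease targets are less well known, had its low values in the same libraries. It had 2.31, 0 and 0 estimated counts in Arid1a cKO, against 24.3, 17.9 and 20 in control, or at most 0.0589 CPM against 0.651 to 0.776 CPM. All control libraries were above all Arid1a cKO libraries. The fit over all genes gave a log2 fold change of −4.998 ± 0.66 SE (adjusted p = 0.0142, edgeR), but with 2 Arid1a cKO libraries at 0 the fitted size depends on the prior count. Since only the control libraries reached the minimum count of 10, the gene entered the test through them alone and had to differ, so the p is given as a description. From the summed rounded counts, 2 in Arid1a cKO and 62 in control, the control level was 38.2 times that of Arid1a cKO, with a 95% interval of 10.1 to 323 that covers counting error only. Leaving out Arid1a cKO replicate 3, control replicate 1 or control replicate 3 took the adjusted p to 0.0515, 0.0519 and 0.0509 (edgeR), just above the threshold of 0.05. Serpina3m overlaps Serpina3k and Serpina3l-ps on the same strand and shares 9.21% of its 75-base stretches with Serpina3k, so its counts are uncertain to that extent. For every 100 Serpina3n counts there were 1.89, 0 and 0 Serpina3m counts in Arid1a cKO, against 3.19, 2.48 and 2.52 in control.

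The rest of the Serpina3 cluster did not share this pattern. Serpina3g, an intracellular inhibitor of cysteine cathepsins, was at 11.1, 0.918 and 1.15 CPM in Arid1a cKO, against 0.786, 1.77 and 1.09 CPM in control. Arid1a cKO replicate 1 alone was high, and the groups overlapped. Its log2 fold change of 1.85 ± 1.08 SE did not pass (adjusted p = 0.376, edgeR) and was −0.24 without that library (adjusted p = 0.801, edgeR).

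The other 5 Serpina3 genes had too few counts for the test, and their estimated counts also peaked in Arid1a cKO replicate 1. Serpina3h had 142.8, 2.08 and 3.10 counts in Arid1a cKO, against 3.28, 3.51 and 5.41 in control. Serpina3i had 83.6, 0 and 1.02 counts in Arid1a cKO, against 0, 1.01 and 2.02 in control. Serpina3f had 77.9, 4 and 2 counts in Arid1a cKO, against 2.07, 7.40 and 5.15 in control. These 3 genes share stretches with one another and with Serpina3g, the most being 104 between Serpina3g and Serpina3h, so reads could be split between them. Serpina3e-ps had 31.8, 0 and 1 counts in Arid1a cKO, against 0, 3.68 and 1.11 in control. Serpina3c had 16.7, 1 and 0 counts in Arid1a cKO, against 6.04, 3.10 and 2.02 in control. None of these 5 genes separated the genotypes, since the remaining Arid1a cKO libraries lay within or below the control range.

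The make-up of the cluster differed between the groups in each library. Summed over the 8 genes the cluster stood at 23.2, 2.57 and 1.68 CPM in Arid1a cKO, against 26.2, 29.3 and 31.3 CPM in control. Serpina3n made up 13.4%, 56.8% and 17.6% of the cluster counts in Arid1a cKO, against 92.7%, 89.4% and 92.4% in control. The exact binomial (Clopper-Pearson) 95% intervals, which cover counting error only, were 11.2% to 15.8%, 46.3% to 67.0% and 8.40% to 30.9% in Arid1a cKO, and together spanned 87.0% to 94.4% in control. Every Arid1a cKO share was below every control share, a direction that follows largely from the choice of Serpina3n for its fall and is given as a description. Without Serpina3n the cluster summed to 20.1, 1.11 and 1.39 CPM in Arid1a cKO, against 1.92, 3.10 and 2.39 CPM in control, so that replicate 1 was above and replicates 2 and 3 were below the control libraries. This sum still holds Serpina3m, at 0.651 to 0.776 CPM in control and at most 0.0589 CPM in Arid1a cKO. Serpina3g, at 0.918 and 1.15 CPM in Arid1a cKO replicates 2 and 3, lay within its control range of 0.786 to 1.77 CPM. The lower sums thus do not show a fall shared by the remaining paralogs.

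The high values of Arid1a cKO replicate 1 went with genes of eosinophils and of alternatively activated macrophages, which were chosen after their values were seen. Retnla, a secreted product of such macrophages, was at 157, 0 and 0 CPM in Arid1a cKO, against 0, 0 and 0.0365 CPM in control. The eosinophil ribonuclease genes Rnase2a and Ear2 were at 33.7 and 25.6 CPM in Arid1a cKO replicate 1, and at 0.219 CPM or less in each other library. The chemokine gene Ccl8 was at 52.4 CPM there and at 0.51 to 0.974 CPM elsewhere, and complement C3 at 64.3 CPM there and at 0.627 to 0.979 CPM elsewhere. Of the listed macrophage markers, 0 of 11 passed the test (edgeR, with 1 higher at an unadjusted p under 0.05, and 0 with DESeq2). All 11 had a positive log2 fold change, with a median of 0.32. Their summed level was 643 to 1017 CPM in Arid1a cKO and 531 to 745 CPM in control, with no marker at 0, so the groups overlapped. The 7 neutrophil markers in the table summed to 0.726 to 19.2 CPM in Arid1a cKO and 0.942 to 1.34 CPM in control, highest in Arid1a cKO replicate 1, with Ltf and Ngp near 0. Whether such cells account for the Serpina3g, Serpina3f, Serpina3h and Serpina3i values was not tested.

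**Figure D2:**
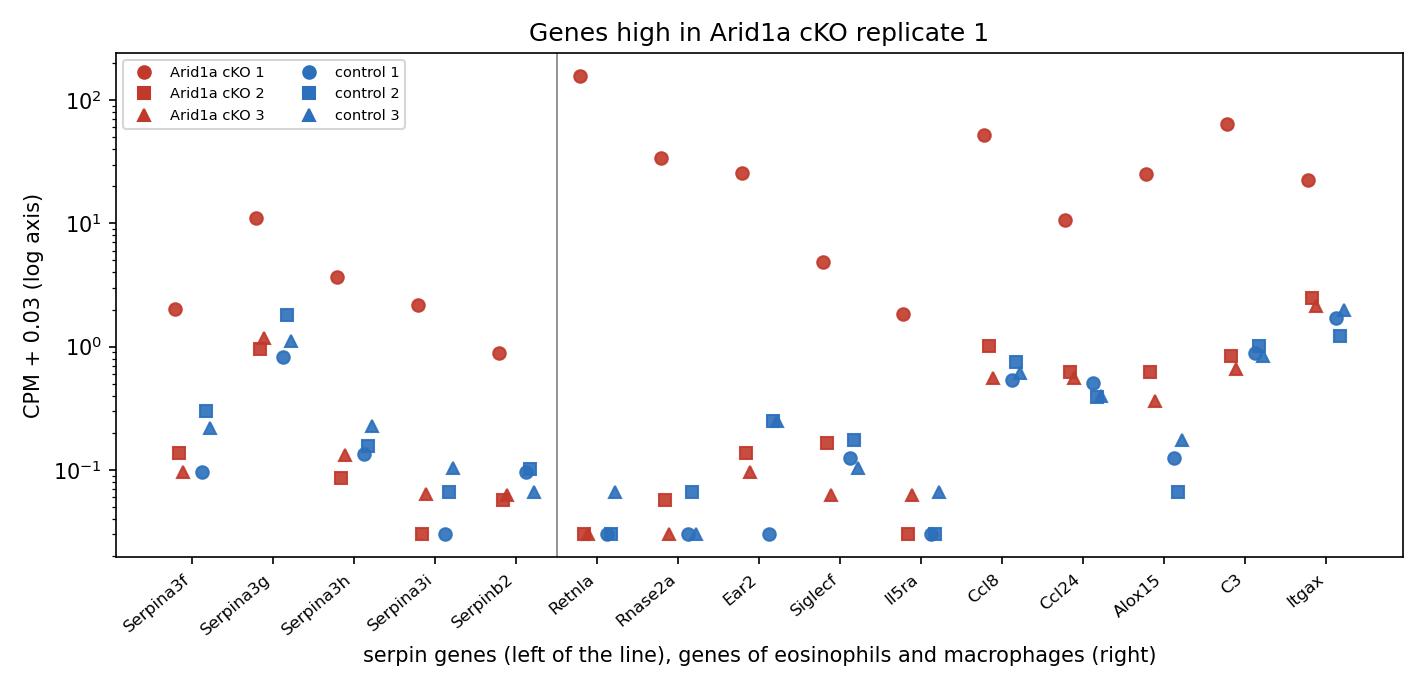
CPM plus 0.03 on a log axis in each library for 5 serpin genes (left of the line) and 10 genes of eosinophils and macrophages (right), Arid1a cKO (red) left of control (blue). Arid1a cKO replicate 1 (red circle) is above every other library for all 15 genes, by the widest margin for Retnla at 157 CPM.

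The start regions of these genes are shown because these neighbouring paralogs had different patterns over the libraries. Each is 300 bases, 250 before to 50 after the gene start in RefSeq (GRCm38.p6). RefSeq held a promoter for 27 of the 35 serpin genes and none for Serpina3m or Serpina3h. Match positions are counted from the RefSeq start, which can differ from the deposited one. For Serpina3g the deposited start, 104236245, lies beyond the end of the window. The windows are chr12:104406458-104406757 for Serpina3n, chr12:104235897-104236196 for Serpina3g and chr12:104262872-104263171 for Serpina3i, all on the plus strand. Capitals mark matches to the motifs searched, as named after the sequences.
Serpina3n: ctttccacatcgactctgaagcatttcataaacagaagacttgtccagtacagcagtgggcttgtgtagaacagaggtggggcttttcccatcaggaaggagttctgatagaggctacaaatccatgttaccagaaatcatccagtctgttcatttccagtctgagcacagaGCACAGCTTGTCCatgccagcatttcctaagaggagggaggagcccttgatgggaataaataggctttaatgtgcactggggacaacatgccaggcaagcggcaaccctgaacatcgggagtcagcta
Serpina3g: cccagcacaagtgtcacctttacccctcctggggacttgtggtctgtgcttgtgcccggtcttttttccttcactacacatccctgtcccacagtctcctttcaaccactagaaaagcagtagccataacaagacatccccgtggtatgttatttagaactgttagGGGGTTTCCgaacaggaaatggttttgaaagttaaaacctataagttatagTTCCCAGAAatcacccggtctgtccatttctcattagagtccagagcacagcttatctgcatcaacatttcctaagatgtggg
Serpina3i: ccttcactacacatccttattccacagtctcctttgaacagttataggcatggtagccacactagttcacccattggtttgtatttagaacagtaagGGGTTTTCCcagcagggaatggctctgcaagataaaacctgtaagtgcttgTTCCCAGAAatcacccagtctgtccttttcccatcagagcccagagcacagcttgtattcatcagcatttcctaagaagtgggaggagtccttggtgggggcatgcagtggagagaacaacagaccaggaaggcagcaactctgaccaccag

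Serpina3n had 1 match, to the palindromic glucocorticoid receptor motif, at −78 from its start. Serpina3g and Serpina3i each had a match to the STAT motif TTCNNNGAA, at −33 and −102, and one to the NF-kB motif GGGNNTTCC, at −84 and −153. Serpina3c had the same glucocorticoid match as Serpina3n, at −75, and Serpina3f a STAT match at −121 from the start that lies further upstream. The C/EBP motif TTGCNNAA, the AP-1 motif TGANTCA and TATAAA were searched as well, with both strands read for every motif, and had no match in these 3 windows; no matches overlapped. Of all 32851 promoters of the same length, 0.475% held the glucocorticoid motif, 8.3% the STAT motif, 5.82% the NF-kB motif, 10.8% the C/EBP motif, 7.81% the AP-1 motif and 13.6% TATAAA. A match of letters describes the sequence and shows neither binding nor a cause.

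Genes around Serpina3n were taken from a window of 1000 kb on each side, chosen after values were seen. Of the 16 tested genes there that are not serpins, 1 was higher, 2 were lower and 13 did not pass. Over all genes tested 1.5% were higher and 2.46% lower. Gsc, a homeobox gene that lies 64.5 kb downstream, averaged 6.87 ± 0.946 CPM in Arid1a cKO and 2.43 ± 0.509 CPM in control (SD, n = 3 each; log2 fold change 1.49 ± 0.20 SE, adjusted p = 0.0142, edgeR). Clmn at 356 kb and Tunar at 927 kb were lower, with log2 fold changes of −0.63 ± 0.11 SE (adjusted p = 0.0271) and −0.73 ± 0.14 SE (adjusted p = 0.0346, edgeR). Leaving out Arid1a cKO replicate 3 took Gsc to an adjusted p of 0.0524. The Clmn call was lost on leaving out any 1 library (0.0556 to 0.0748), and the Tunar call in 5 of 6 such fits (up to 0.112; it held without Arid1a cKO replicate 1). Dicer1, the next tested gene on that side after Gsc and Gm10000, did not pass (log2 fold change −0.07 ± 0.06 SE, adjusted p = 0.515, edgeR). Among these genes that are not serpins, Gsc was the nearest to Serpina3n that passed, and its sign was opposite. That their changes were smaller follows from the choice of Serpina3n for its fall. Serpina3m, a serpin in the same window and so not counted here, was lower as well (log2 fold change −4.998).

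**Figure D3:**
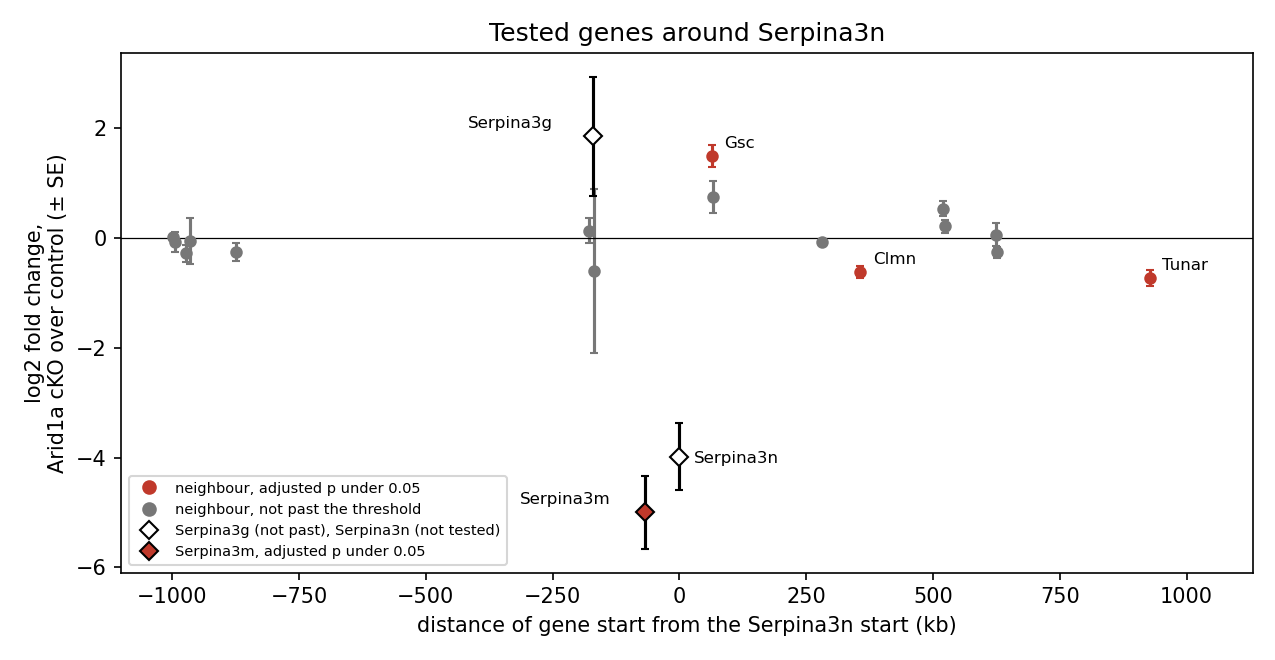
Log2 fold change of Arid1a cKO over control (± SE) against the distance of each gene start from that of Serpina3n in kb, for 16 tested neighbours (circles) and 3 Serpina3 genes (diamonds). Serpina3n at −3.98 and Serpina3m at −4.998 lie well below the neighbours, of which Gsc at 1.49 is the highest.

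Across the whole family 19 of the 35 genes had enough counts to be tested. The other 16 averaged 0.045 to 0.705 CPM over the 6 libraries. Of the 18 tested members other than Serpina3n, 1 was lower (Serpina3m) and 0 were higher in Arid1a cKO at an adjusted p under 0.05, where 2.46% of all 19613 genes tested were lower and 1.5% higher (3.96% in either direction). The lower call gives no support, because Serpina3m entered the test through the control libraries alone. These are edgeR counts, and the same shares of all genes are the background for the edgeR list counts at an adjusted p elsewhere. At an unadjusted p under 0.05 edgeR gave 3 higher members, among them Serpinb1a and Serpine2. It gave 4 lower ones, Serpinb5, Serpinf1, Serpina3m and the Serpina3n that chose the family. The share of all genes at this looser cutoff was not counted, and the adjusted shares are no background for it. Counts at an unadjusted p, here and for the lists, therefore show no excess over other genes. DESeq2 also called 0 serpins higher. Of the 18 without Serpina3n, 3 lower and 3 higher members had groups that did not overlap, against 29.1% of all genes tested in either direction. The 3 lower ones include Serpina3m, which had to differ. The median log2 fold change of these 18 serpins was 0.10, against 0.00 for all genes. Since a gene that was high in 1 group only could enter the test through that group, these counts describe the tested members alone.

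**Figure D4:**
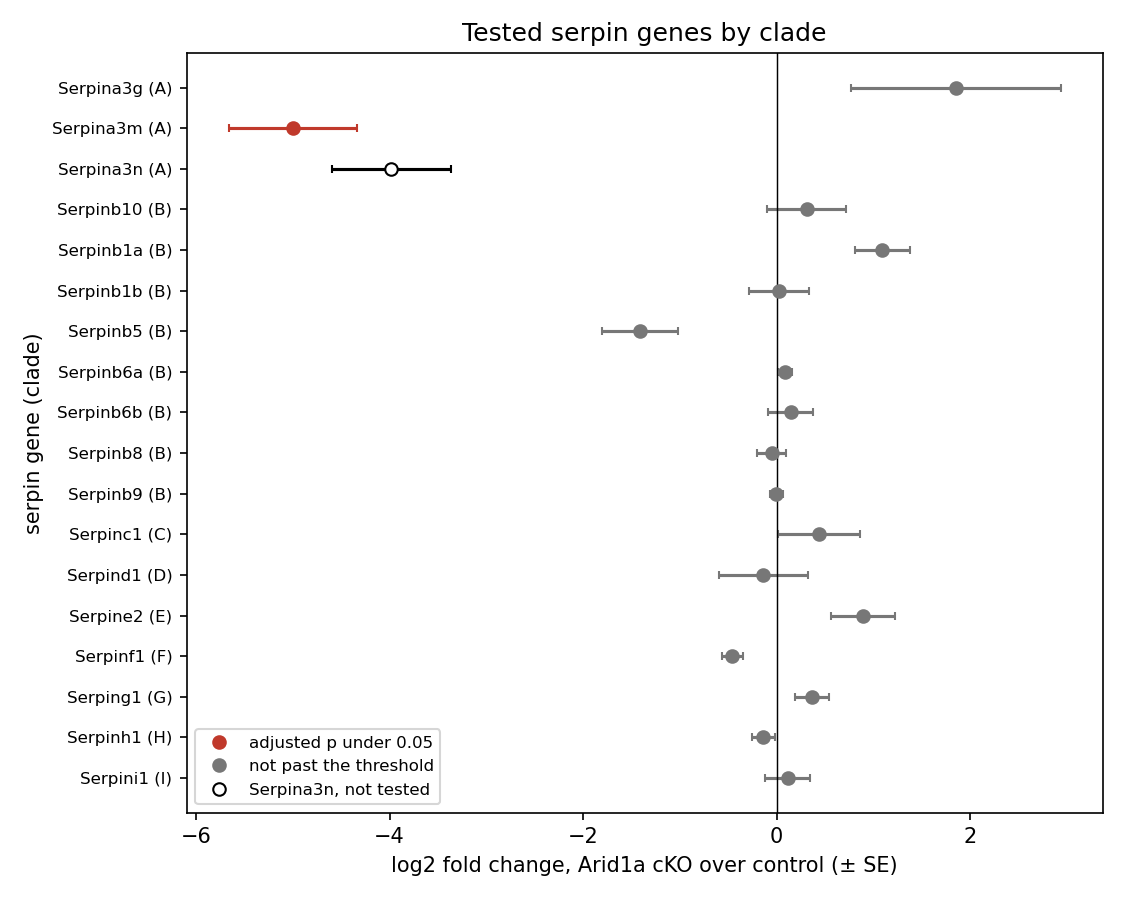
Log2 fold change of Arid1a cKO over control with its SE for 18 of the 19 tested serpin genes, ordered by clade (letter in brackets). Serpina3m (red) is past the threshold, Serpina3n (open) is shown without a test, and the 16 other genes (grey) did not pass.

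The family as a whole summed to 2429, 2597 and 2361 CPM in Arid1a cKO, against 2934, 2465 and 2715 CPM in control, so that the groups overlapped. Serpinh1 and Serpinf1 carried most of this level. Per kb of exon, which allows genes to be compared, Serpinh1 averaged 577 CPM per kb in Arid1a cKO and 636 CPM per kb in control, and Serpinf1 241 and 330. Serping1 followed at 56.1 and 43.6 CPM per kb in Arid1a cKO and control, Serpine2 at 25.4 and 13.6, and Serpinb6a at 14.3 and 13.5. Serpina3n was next in control, at 12.8 CPM per kb, above Serpinb9 at 7.63. In Arid1a cKO Serpina3n averaged 0.787 CPM per kb, below Serpinb9 at 7.60. Serpina3g averaged 2.08 there through replicate 1 (5.26, 0.436 and 0.547 CPM per kb in Arid1a cKO), and its libraries overlapped those of Serpina3n (1.51, 0.708 and 0.144 CPM per kb in Arid1a cKO). In control the libraries of Serpine2, Serpinb6a and Serpina3n overlapped in level per kb, so the order of these 3 genes there is within their spread.

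Serpinf1 (clade F) encodes a secreted factor that restrains blood vessel growth and is made by bone and mesenchymal cells. It was at 571.7, 604.8 and 528.2 CPM in Arid1a cKO, against 891.8, 683.9 and 762.8 CPM in control. The groups did not overlap, and control replicate 1 was the highest library. The means were 568 ± 38.4 CPM in Arid1a cKO and 780 ± 105 CPM in control (SD, n = 3 each), and the log2 fold change of −0.46 ± 0.11 SE missed the threshold in edgeR (adjusted p = 0.0663) but not in DESeq2 (adjusted p = 0.00131).

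Serpinh1 (clade H), the collagen chaperone of the endoplasmic reticulum, was at 1320, 1577 and 1335 CPM in Arid1a cKO, against 1743, 1387 and 1529 CPM in control. The groups overlapped, with a log2 fold change of −0.14 ± 0.12 SE (adjusted p = 0.539, edgeR). The fibrillar collagens it folds summed over 9 genes to 28230, 26230 and 26880 CPM in Arid1a cKO, against 39510, 18410 and 30960 CPM in control. Their order over the libraries was that of Serpinh1 in control and the reverse of it in Arid1a cKO. Of the 9 collagen genes 2 were lower and 0 higher, Col5a3 (log2 fold change −1.11, adjusted p = 0.00697, edgeR) and Col5a1 (−0.52, adjusted p = 0.0148). Of 22 genes for collagen folding and modification 1 was lower, the procollagen protease Bmp1 (−0.53, adjusted p = 0.035, edgeR), and 0 were higher. Leaving out Arid1a cKO replicate 3, control replicate 1 or control replicate 3 took Col5a1 above the threshold (adjusted p = 0.0592, 0.0503 and 0.0512, edgeR), and 5 of the 6 such fits did so for Bmp1 (up to 0.118, the exception being control replicate 2).

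Clade E holds the inhibitors of plasminogen activators. Serpine2, which blocks thrombin and urokinase outside cells, was at 211.6, 178.1 and 240.7 CPM in Arid1a cKO, against 61.7, 134.4 and 143.2 CPM in control. The groups did not overlap, and control replicate 1 was well below the other control libraries. The log2 fold change of 0.89 ± 0.33 SE did not pass (adjusted p = 0.193, edgeR), nor did the value of 0.60 without control replicate 1 (adjusted p = 0.097, edgeR). Schwann cell markers were lowest in the same library, with a sum over 10 genes of 161.6 to 236.9 CPM in Arid1a cKO and 90.5 to 166.2 CPM in control, no marker at 0, and 1 of 10 lower (Cdh19, log2 fold change −1.25, adjusted p = 0.0127, edgeR). Their part in the Serpine2 values was not tested.

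Of 12 tested genes of plasminogen activation 1 was lower and 0 were higher, with a median log2 fold change of −0.10. The gene that passed was Plat, tissue plasminogen activator itself (−0.50, adjusted p = 0.0497, edgeR), and this call was lost on leaving out any 1 of the 6 libraries (adjusted p = 0.0604 to 0.151, edgeR) and with RLE scaling (0.0509). The list summed to 1474 to 1760 CPM in Arid1a cKO and 1801 to 1949 CPM in control.

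Serping1 (clade G), the C1 inhibitor of the complement and contact systems, was at 160.1, 105.0 and 125.9 CPM in Arid1a cKO, against 84.7, 105.9 and 113.4 CPM in control. The groups overlapped, and Arid1a cKO replicate 1 was the highest library. The log2 fold change was 0.36 ± 0.17 SE (adjusted p = 0.283, edgeR), and 0.19 without that library (adjusted p = 0.554, edgeR). Of 16 tested complement genes of the early pathways 0 were higher (edgeR), with a median log2 fold change of 0.49. C4a did not pass at 2.11 (adjusted p = 0.0814, edgeR). At an unadjusted p under 0.05 edgeR gave 5 higher genes of this list, and DESeq2 called 4 higher.

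**Figure D5:**
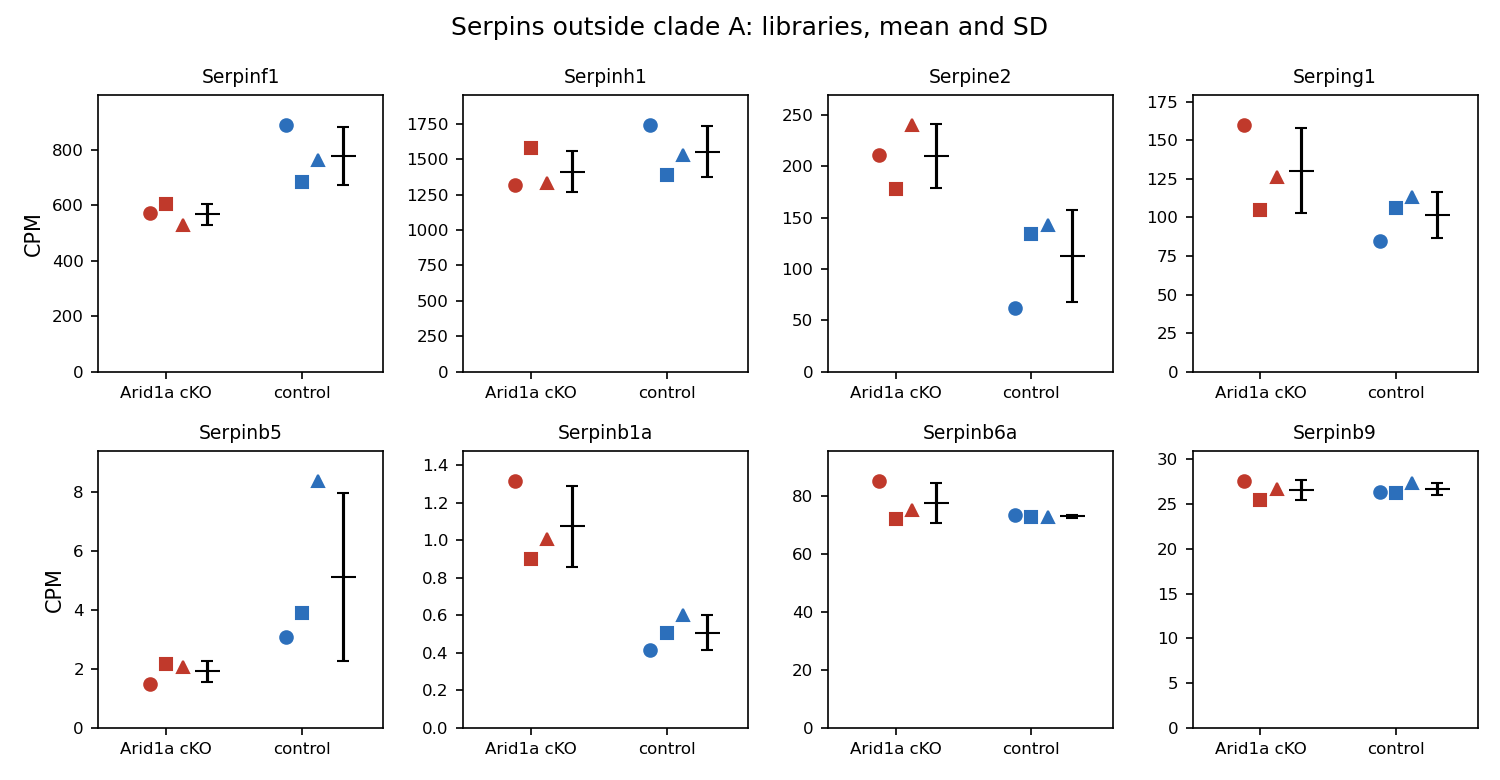
CPM of 8 serpin genes outside clade A by library, Arid1a cKO left of control, with the mean and SD as black bars beside the points; each panel starts at 0. Serpinf1 and Serpinb5 lie lower, and Serpine2 and Serpinb1a higher, in all Arid1a cKO libraries than in all control libraries, but none of the 8 passed the threshold in edgeR.

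Clade B serpins act inside cells, many against proteases of immune cell granules. Serpinb6a, an inhibitor of cathepsin G, was at 85.3, 72.1 and 75.3 CPM in Arid1a cKO, against 73.5, 72.8 and 72.7 CPM in control (log2 fold change 0.09, adjusted p = 0.514, edgeR). The groups overlapped, and because Serpinb6a overlaps Nqo2 and Ripk1 on the opposite strand its counts could hold their reads. Serpinb9, the inhibitor of granzyme B, was at 27.6, 25.4 and 26.7 CPM in Arid1a cKO, against 26.4, 26.2 and 27.4 CPM in control. Its mean differed by less than the spread between libraries (log2 fold change −0.0044 ± 0.07 SE, adjusted p = 0.98, edgeR). Serpinb6b, a granzyme A inhibitor, was at 7.11, 9.12 and 9.23 CPM in Arid1a cKO, against 7.52, 5.36 and 10.2 CPM in control (log2 fold change 0.14, adjusted p = 0.764, edgeR). Serpinb8, whose human counterpart inhibits furin, was at 7.37, 6.36 and 6.20 CPM in Arid1a cKO, against 7.46, 5.73 and 7.45 CPM in control (log2 fold change −0.05, adjusted p = 0.881, edgeR). In both genes the groups overlapped.

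Serpinb5, the non-inhibitory epithelial serpin maspin, was at 1.50, 2.17 and 2.08 CPM in Arid1a cKO, against 3.09, 3.88 and 8.36 CPM in control. The groups did not overlap, but control replicate 3 was far above the rest. The log2 fold change of −1.41 ± 0.39 SE missed the threshold in edgeR (adjusted p = 0.094), passed in DESeq2 (adjusted p = 0.00476), and was −0.86 without control replicate 3 (adjusted p = 0.147, edgeR). Dental epithelium markers varied between the libraries too. The sum over 15 markers was 3305, 1583 and 2318 CPM in Arid1a cKO, against 1343, 1505 and 4817 CPM in control, with none at 0. The high sum of control replicate 3 came largely from the enamel genes Amelx (1914 CPM) and Enam (824 CPM). The mean log2 level of the 15 markers was 6.40, 5.34 and 5.92 in Arid1a cKO, against 5.12, 5.50 and 6.43 in control, again highest in control replicate 3. The general epithelial marker Epcam was at 42.9 to 50.9 CPM in Arid1a cKO and hardly differed among the control libraries (33.6 to 34.2 CPM). Epcam was the 1 marker called higher in Arid1a cKO (log2 fold change 0.47, adjusted p = 0.0199, edgeR, up to 0.077 on leaving out 1 library). With the mean log2 level of these markers as a covariate the Serpinb5 log2 fold change was −1.40 (adjusted p = 0.0739, edgeR).

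Serpinb1a, an inhibitor of neutrophil elastase, was at 1.32, 0.901 and 1.01 CPM in Arid1a cKO, against 0.414, 0.507 and 0.602 CPM in control. Each Arid1a cKO library was above each control library, with a log2 fold change of 1.09 ± 0.29 SE that missed the threshold (adjusted p = 0.0783, edgeR). The low members Serpinb1b and Serpinb10 averaged 0.541 and 0.521 CPM in Arid1a cKO and 0.526 and 0.423 CPM in control, with overlapping groups (log2 fold changes 0.03 and 0.31, adjusted p = 0.975 and 0.707, edgeR). Among 14 tested granule proteases, chymases and cathepsins, 0 passed in either direction (edgeR), and the median log2 fold change was 0.22. At an unadjusted p under 0.05 edgeR gave 2 higher and 1 lower, and DESeq2 called 1 higher. The mast cell chymase Cma1 came closest (log2 fold change 2.46 ± 0.67 SE, adjusted p = 0.0918, edgeR). None of 5 tested kallikreins passed, among them Klk4, the protease of maturing enamel (log2 fold change 1.57 ± 0.37 SE, adjusted p = 0.0587, edgeR). Klk4 was higher and Klk13 lower at an unadjusted p under 0.05, and DESeq2 called 1 kallikrein in each direction.

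Single members of the other clades were low. Serpini1 (clade I), an inhibitor of tissue plasminogen activator in neurons, was at 3.19, 4.20 and 2.57 CPM in Arid1a cKO, against 2.61, 3.77 and 2.85 CPM in control (log2 fold change 0.11, adjusted p = 0.823, edgeR). Serpinc1 (clade C), antithrombin, averaged 1.08 ± 0.564 CPM in Arid1a cKO and 0.805 ± 0.124 CPM in control (SD, n = 3 each; log2 fold change 0.44, adjusted p = 0.59, edgeR). Serpind1 (clade D), heparin cofactor, averaged 0.295 ± 0.0785 CPM in Arid1a cKO and 0.332 ± 0.151 CPM in control (SD, n = 3 each; log2 fold change −0.14, adjusted p = 0.894, edgeR). In each of the 3 genes the groups overlapped, and Serpinc1 and Serpind1 overlap Zbtb37 and Pi4ka on the opposite strand.

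Apart from the Serpina3 genes, 11 members were too low to test. Serpina6, which binds glucocorticoids in plasma, had 4, 5 and 1 counts in Arid1a cKO, against 0, 0 and 0 in control, and the 95% interval of the ratio, for counting error, starts at 1.82. Serpinf2, the plasmin inhibitor, had 14 counts in Arid1a cKO and 4 in control (ratio 2.84, 95% interval 0.891 to 11.8 for counting error). Both had groups that did not overlap, at levels near the detection limit. Serpina11 had 17 counts in Arid1a cKO replicate 1 and 0 in each other library. Serpinb2, a plasminogen activator inhibitor of macrophages, had 33.4 counts in Arid1a cKO replicate 1 and 1 to 2.05 in each other library. In Serpinb9b the same library was highest, at 12.9 counts. Serpina1b, Serpina1d and Serpina1e, the copies of antitrypsin, together with Serpina10, Serpinb12 and Serpinb6c had at most 10.9 counts in any library, and the intervals of their ratios all included 1. In the 3 Serpina1 genes 62.9% to 81% of the 75-base stretches occur in no other gene, so reads of one may be counted for another.

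Serpina3n is known in other tissues as a target of cytokine signalling through STAT3 and of glucocorticoids. Of 17 tested acute phase and STAT3 response genes 1 was higher and 0 were lower, with a median log2 fold change of 0.15. Timp1, an inhibitor of metalloproteases, was higher (0.72 ± 0.14 SE, adjusted p = 0.0374, edgeR), Cebpb was at −1.09 ± 0.27 SE (adjusted p = 0.0831) and Socs3 at 0.58 ± 0.16 SE (adjusted p = 0.0914). The list summed to 636 to 686 CPM in Arid1a cKO and 666 to 710 CPM in control. Of 14 tested glucocorticoid response genes 1 was higher, the metallothionein Mt2 (0.70 ± 0.13 SE, adjusted p = 0.029, edgeR), and 0 were lower, with a median log2 fold change of 0.28. Mt1 followed at 0.81 ± 0.19 SE (adjusted p = 0.0623). The Timp1 call was lost in 5 of the 6 fits that left out 1 library (adjusted p up to 0.117, edgeR; it held without Arid1a cKO replicate 2), and the Mt2 call in 5 (up to 0.097; it held without control replicate 3).

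Markers of mesenchyme differed beside these values. Of 12 dental mesenchyme markers 2 were lower, Gli1 (log2 fold change −0.52, adjusted p = 0.0162, edgeR) and Msx2 (−0.49, adjusted p = 0.0194), and 0 were higher. Over all genes tested 2.46% were lower and 1.5% higher. Gli1 also drives CreER in the Arid1a cKO mice, so an effect of that allele on Gli1 cannot be told apart from the loss of Arid1a. Of 10 odontoblast markers 2 were lower, Nes (−0.86, adjusted p = 0.0359, edgeR) and Alpl (−0.81, adjusted p = 0.0379), and 0 were higher. Of the 10, 7 had a negative and 3 a positive log2 fold change, with a median of −0.17. Dspp (0.27) and Dmp1 (0.36) were among the positive ones and did not pass. The list summed to 27950 to 30310 CPM in Arid1a cKO and 17200 to 42230 CPM in control, so the groups overlapped. Of 9 markers of the dental follicle and periodontal ligament 3 were lower (1 on leaving out Arid1a cKO replicate 3, control replicate 2 or control replicate 3), and 0 higher. The 9 genes summed to 1817 to 1926 CPM in Arid1a cKO and 2826 to 3068 CPM in control, a difference carried by Fmod (log2 fold change −1.56, adjusted p = 0.00919, edgeR) and Col12a1 (−0.57, adjusted p = 0.0217). Their median log2 fold change was −0.07, and at an unadjusted p under 0.05 edgeR gave 3 higher (Postn, Pthlh and Tnmd) and 3 lower. The Gli1 and Msx2 calls were each lost in 3 of the 6 fits that left out 1 library (adjusted p up to 0.0674, edgeR) and the Nes and Alpl calls in 5 each (up to 0.119). The part of these cells in the Serpina3n difference was not tested. Liver markers, which would mark plasma or liver RNA, summed to 2.66 to 3.92 CPM in Arid1a cKO and 1.35 to 5.09 CPM in control over 7 genes, with Apoh near 0, and 0 of 2 tested passed (edgeR; also 0 at an unadjusted p under 0.05 and with DESeq2). None of 10 endothelial markers passed (edgeR; 1 lower at an unadjusted p under 0.05, and 0 with DESeq2).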

How the data were processed

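Total RNA of 6 mouse incisor libraries was sequenced as single-end reads of 75 cycles, per the labels' protocols. Per the submitters' processing notes STAR 2.6.1d, Partek and the build mm10 were used; the annotation release and strandedness were not given in the sources used here. Estimated counts were deposited by the authors, of which 54% to 57.6% in each library lie within 0.01 of a whole number, with a normalized signal table, used only as an alternative. Counts were rounded for tests. The filter was filterByExpr in edgeR at a minimum count of 10. Libraries were scaled by TMM and compared with the quasi-likelihood F test (robust, two-sided, all 6 libraries, no covariate). Adjustment was by Benjamini-Hochberg across 19613 genes, with a threshold of 0.05. SE is the absolute log2 fold change over the square root of F, and CPM uses TMM-scaled totals. Software was DESeq2 1.42.0, limma 3.58.1 and edgeR 4.0.16 under R 4.3.3, and SciPy 1.17.1, Biopython 1.88 and matplotlib 3.10.9 under Python 3.11.15, and the test was tried on simulated data.

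The serpin genes, the gene lists and the tests were chosen with earlier results of these data known. Named are serpins with a mean of at least 1 CPM or an adjusted p under 0.05, all Serpina3 genes, Arid1a, and from each list up to 4 genes with the smallest p; some genes of these are not reported here. Exon lengths, overlaps and shared 75-base stretches come from GENCODE M21, in which all 35 genes have the deposited start. Intervals cover counting error only, since reads without molecular identifiers are not independent molecules. Alternatives were other scalings, filters, tests, covariates and each library left out. Those for Arid1a, neighbouring genes and list genes were added after seeing the data.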

Additional observations from a re-analysis of the deposited data

How the results depend on the processing

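No paired analysis was possible because the sample titles of the genotypes share fewer than 2 numbers; the protocol speaks of 3 pairs of samples without saying which libraries form a pair, so every test is unpaired, and the replicate numbers used here follow accession order only. Over all genes, 482 lower and 295 higher calls became 1093 and 812 with DESeq2 and 817 and 455 with sex-linked expression as a covariate, and ranged from 98 to 339 and from 55 to 193 on leaving out 1 library. The serpins lower in Arid1a cKO, a description that counts Serpina3n itself and Serpina3m, were 2 in the main setting, 1 with no filter on low counts, 0 when 1 CPM was required in all libraries (which removes both genes), 3 with DESeq2 and 0 to 2 on leaving out 1 library; none was higher in any setting. DESeq2 gave Serpina3m no adjusted p, and its 3 calls include Serpinb5 and Serpinf1. The Serpina3n log2 fold change was −2.08 on the authors' normalized table with a pseudocount of 5, which shrinks the change of low genes, and ranged from −4.84 to −3.51 on leaving out 1 library. Its share of the cluster counts differed by −62.2 percentage points (Arid1a cKO minus control), and by −75.95 to −54.24 points on leaving out 1 library. The summed level of the family in Arid1a cKO was 91% of control, and 87.2% to 95.1% on leaving out 1 library. The sign turned round only in members that did not pass. On leaving out 1 library the log2 fold change ranged from −0.24 (without Arid1a cKO replicate 1) to 2.33 for Serpina3g, −0.16 to 0.15 for Serpinb1b, −0.0452 to 0.40 for Serpinb6b, −0.15 to 0.0187 for Serpinb8, −0.0333 to 0.025 for Serpinb9, −0.48 to 0.12 for Serpind1 and −0.0924 to 0.30 for Serpini1. Serpinb1b was at −0.0016 with limma-voom. Serpinb9 was at 0.0151 with upper quartile scaling, 0.0212 with library size alone, 0.0114, 0.0116 and 0.0097 on the authors' table with pseudocounts 1, 0.5 and 5, 0.001 with no filter and 0.0101 with the 1 CPM filter. The cause of these shifts was not tested. Of the single-member values under an alternative 322 kept their sign and side of the threshold, 22 turned round, 2 passed newly and 3 no longer passed. Depth limits the 16 untested members, whose counts of a few reads could hide differences of several fold.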
